A study of Mus musculus with 12 samples.

Results

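Eph receptors, ephrins, semaphorins, plexins, neuropilins, Slits, Robos and netrins are the ligands and receptors first described for the guidance of growing axons, and they were followed here in sorted bone osteoprogenitors. Genes were chosen by their symbols alone, which gave 63 of the 18193 genes with a probe set of their own, and each was read from its probe set of highest mean over 12 microarrays. The 63 hold 13 Eph receptors, 8 ephrins, 20 semaphorins, 11 plexins and neuropilins, 7 Slits and Robos and 4 netrins. Of these, 55 lay above the median of the array in at least 2 arrays and were tested among 12496 genes, while Epha5, Epha6, Epha8, Epha10, Ephb1, Robo2, Robo3 and Robo4 did not and were only described.

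Ephrins are held in the cell membrane and act on Eph receptors of a touching cell, and the ephrin-bearing cell can signal in return. Semaphorins act through plexins, and most of the secreted class 3 also need a neuropilin as the binding subunit. Slits bind Robos, netrins bind DCC, neogenin and UNC5 receptors, and in bone several of these pairs are known from exchanges among osteoblasts, osteoclasts, vessels and nerves.

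The cells came by flow cytometry from limb bones, skull cap, scapula, vertebrae and ribs of young mice, described as JUN-inducible, whose mothers drank doxycycline. In the JUN mice, sorting followed 2 days of induction of JUN, a subunit of the AP-1 transcription factor. Each of the 3 populations, SSC, CSP and Thy (BCSP and Thy+ in the design text for the last 2), has 2 arrays with JUN and 2 labelled -JUN, read here as not induced and called no JUN. The 6 groups are SSC JUN, SSC no JUN, CSP JUN, CSP no JUN, Thy JUN and Thy no JUN. The sources used here do not give the transgene's driver or the age in days. Whether the no JUN mice carried the transgene and what their mothers drank is not given either. Array numbers follow the labels, so the no JUN arrays of SSC are 1 and 3.

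Values are log2 expression values, on which a difference of 1 is a doubling, and precision is limited by the number of arrays. The 12 arrays came from 5 mice, each in 1 arm. Of the 4 SSC arrays 3 (JUN 2, no JUN 1 and no JUN 3) carry a date in their title, which the other 9 arrays do not, so 1 SSC array shares this feature with CSP and Thy. Mouse 3, the source of the first no JUN array of each population, had Xist values of 12.49 to 13.20, against 6.11 to 7.29 on the other arrays. Thy1 averaged 8.28 in SSC, 8.47 in CSP and 12.98 in Thy. The 3 skeletal progenitor genes (Prrx1, Pdgfra and Twist1) averaged 11.78 to 12.56 on every array. Jun itself was 13.18 and 12.13 in SSC JUN, against 12.60 and 12.06 in SSC no JUN. In CSP it was 12.92 and 12.82 with JUN, against 13.37 and 13.24 without. In Thy it was 13.03 and 12.90 with JUN, against 12.81 and 13.65 without. The JUN arrays were thus not set apart by Jun signal, in CSP both lay below the no JUN arrays, and whether its probe set reads the induced transgene was not tested.

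All 6 families were represented well above the middle of the arrays, whose medians centred on 7.70. Signals of different probe sets also depend on their probes, so each gene is described against itself and the arrays' median only. Among Eph receptors, Epha3 lay between 10.18 and 12.28, Ephb4, the receptor of ephrin-B2, between 9.98 and 12.15, and Epha4 between 9.55 and 11.16. Among ephrins, Efnb2 lay between 9.45 and 10.95, Efnb1, an X-linked ligand needed for skeletal patterning, between 9.40 and 10.74, and Efna5 between 9.28 and 10.79. The secreted Sema3c spanned 10.42 to 13.64, the membrane-bound Sema5a 11.22 to 12.87 and the secreted Sema3a 10.57 to 12.74. The semaphorin receptors Nrp1 (11.99 to 13.33) and Plxnb2 (11.16 to 13.21) were high on every array, and Nrp2 spanned 9.45 to 11.82. Robo1 lay between 10.62 and 12.53, and its ligands Slit3 and Slit2 between 9.00 and 12.44 and between 9.62 and 10.97. Netrin genes Ntn1, Ntn4 and Ntn3 spanned 11.26 to 12.78, 9.71 to 11.07 and 8.44 to 9.79. These 18 genes were above the median on all 12 arrays, whereas Epha6, Epha8, Epha10, Robo2 and Robo3 lay at or below it on every array.

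**Figure D1:**
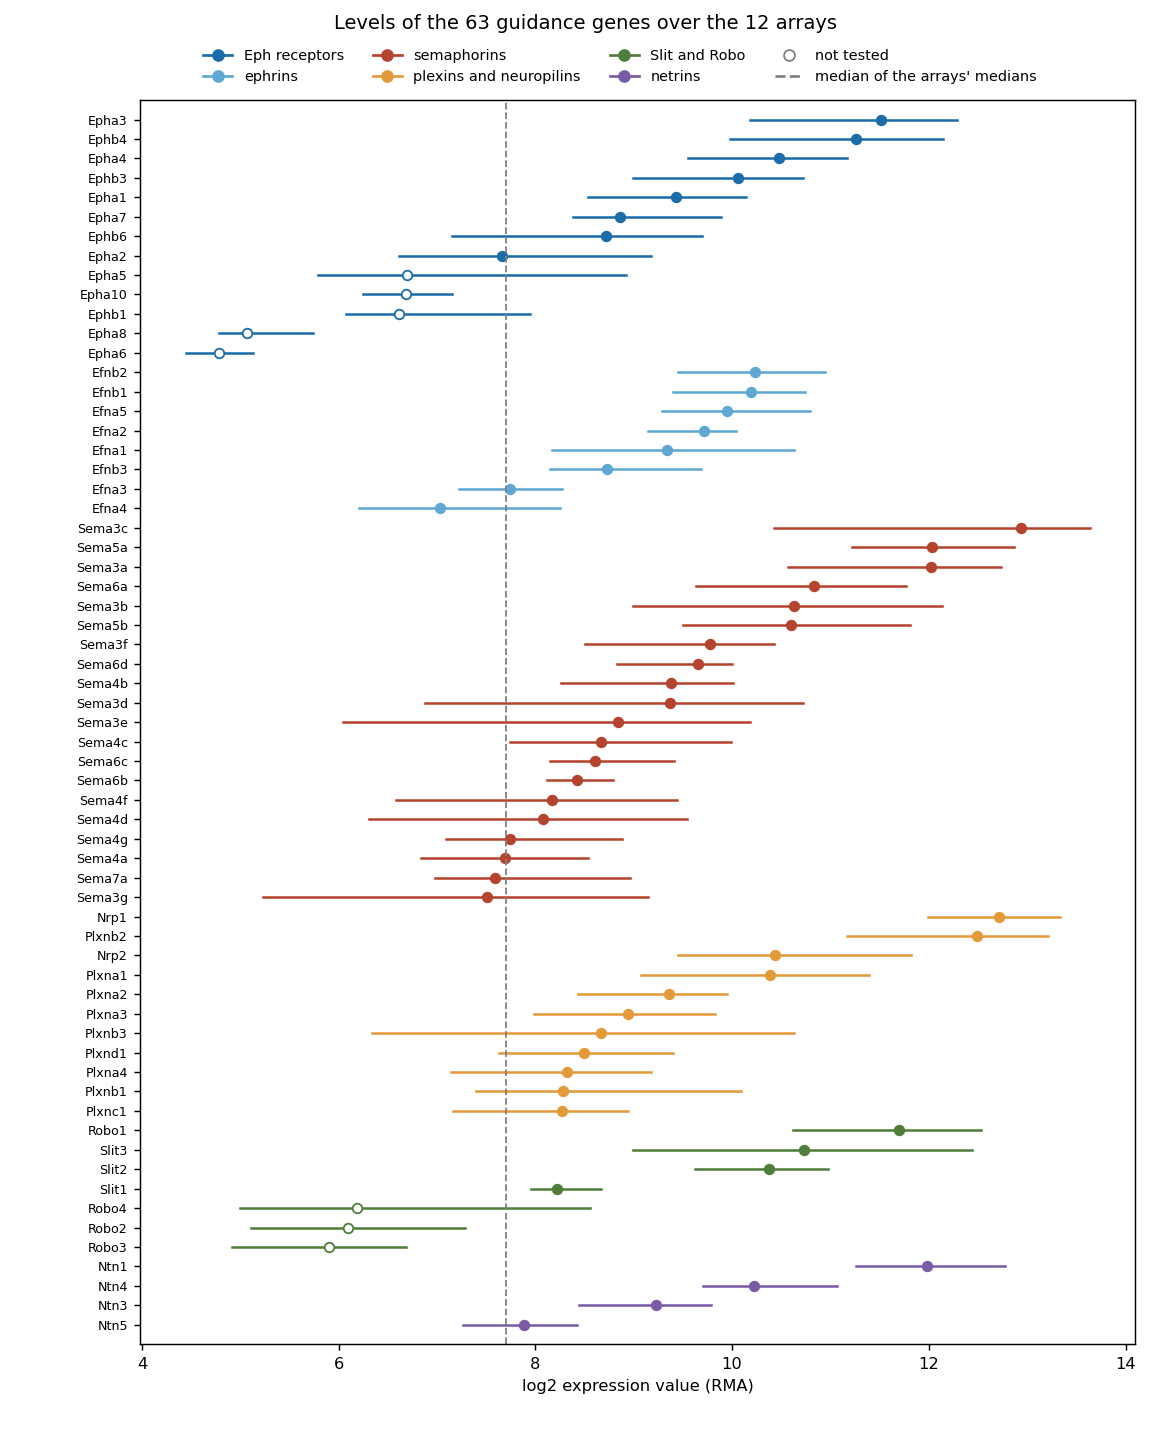
Mean (point) and lowest to highest value (line) of each of the 63 guidance genes over 12 arrays, on the log2 scale, coloured by family, with open points for the 8 genes not tested. The dashed line marks the median of the arrays' medians, 7.70, and most genes of every family lie to its right.

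The genes that passed between populations were a plexin and 2 semaphorins. Plxnb3, a receptor of Sema5a known from the glial lineage, and Sema3g, a secreted semaphorin that binds Nrp2, were low in CSP and high in both SSC and Thy. Sema3b, another secreted class 3 semaphorin, was lower in CSP than in Thy. No guidance gene passed the test between SSC and Thy.

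Plxnb3 was 10.19, 9.68, 8.91 and 9.13 in SSC (JUN 1, JUN 2, no JUN 1 and no JUN 3). It was 7.18, 7.27, 7.13 and 6.34 in CSP (JUN 1, JUN 2, no JUN 1 and no JUN 2), and 9.17, 9.15, 10.63 and 9.19 in Thy in the same order. All 4 CSP arrays lay below all 8 others, and CSP values were under the arrays' median. SSC averaged 9.48 ± 0.57 and CSP 6.98 ± 0.43 (SD, n = 4 each), a difference of 2.50 ± 0.38 (SE), or 5.64-fold (limma, adjusted p = 0.0131). CSP minus Thy, with Thy at 9.53 ± 0.73, was -2.55 ± 0.38, or 5.87-fold lower in CSP (adjusted p = 0.00809). A second Plxnb3 probe set gave 1.50 for SSC minus CSP and -1.58 for CSP minus Thy.

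Sema3g was 8.50, 7.85, 7.92 and 8.72 in SSC, 6.25, 5.23, 6.31 and 6.26 in CSP and 7.68, 7.37, 9.15 and 8.85 in Thy, in the order of arrays given for Plxnb3. Again no CSP array reached the lowest of the other 8. SSC averaged 8.25 ± 0.43 and CSP 6.01 ± 0.52, which differed by 2.24 ± 0.33, or 4.71-fold (limma, adjusted p = 0.0111). CSP minus Thy, with Thy at 8.26 ± 0.87, was -2.25 ± 0.33, or 4.76-fold lower in CSP (adjusted p = 0.00743). The gene has 1 probe set, which lay above the median on 6 arrays, none of them from CSP, and differences of dim probe sets are compressed by the array.

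Sema3b was 12.13, 11.13, 10.62 and 10.72 in SSC, 9.65, 10.41, 9.00 and 9.22 in CSP and 10.87, 11.19, 11.64 and 10.90 in Thy. CSP did not overlap either population. CSP, at 9.57 ± 0.62, minus Thy, at 11.15 ± 0.36, was -1.58 ± 0.33, or 2.99-fold lower in CSP (limma, adjusted p = 0.0438). SSC, at 11.15 ± 0.69, exceeded CSP by 1.58 ± 0.33 without passing (adjusted p = 0.0755). Its other 2 probe sets gave 1.22 and 0.71 for SSC minus CSP and -1.21 and -0.52 for CSP minus Thy.

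**Figure D2:**
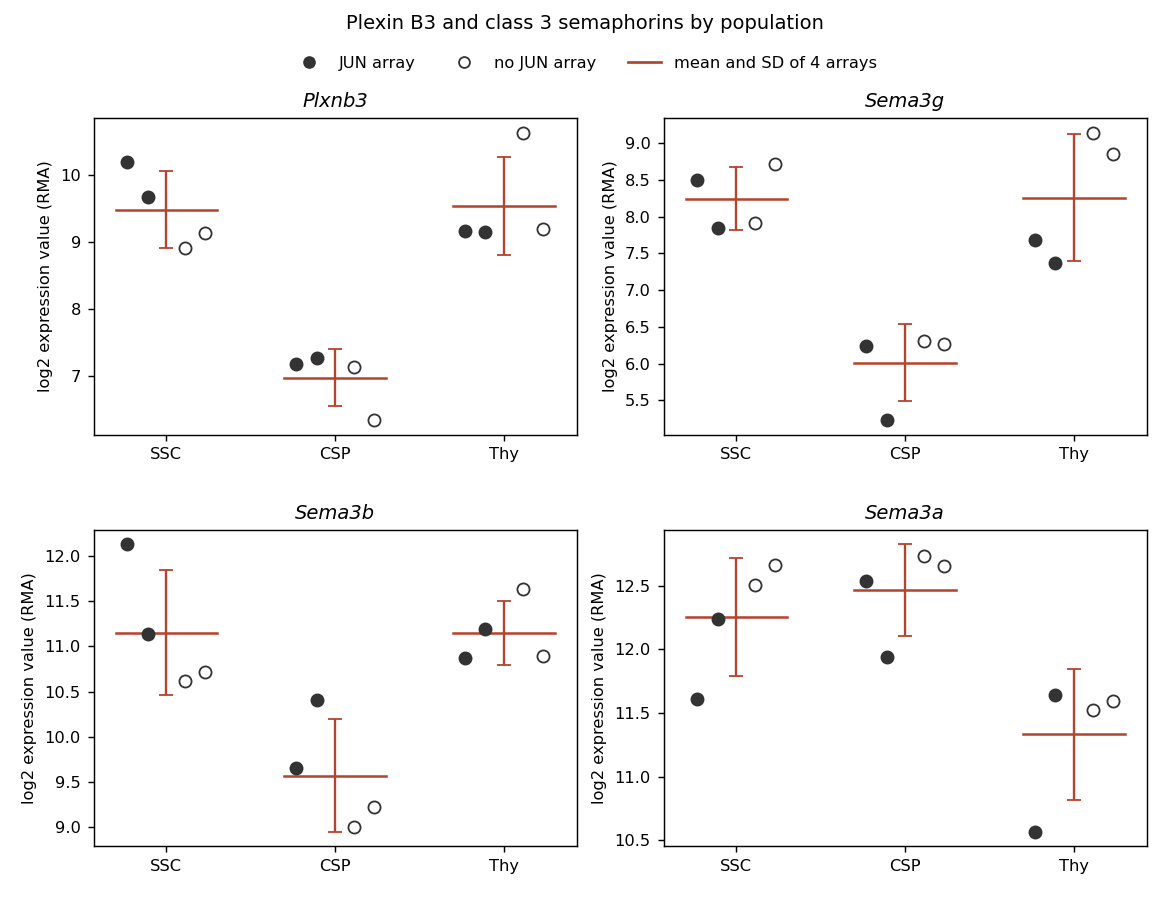
Log2 expression value of Plxnb3, Sema3g, Sema3b and Sema3a on each array, by population (SSC, CSP, Thy), with JUN arrays filled and to the left of open no JUN arrays. Red lines give the mean and SD of 4 arrays; CSP lies below both other populations for Plxnb3 (mean 6.98), Sema3g (6.01) and Sema3b (9.57), and Thy is lowest for Sema3a (11.33).

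Plxnb3, Sema3g and Sema3b all had CSP lowest, but no promoter of Sema3b was available. For Plxnb3 and Sema3g the 300 bases around their starts (250 before and 50 after) are shown, from RefSeq on GRCm38.p6. That of Sema3g is chr14:31217623-31217922 and that of Plxnb3 chrX:73756853-73757152, both on the plus strand, and capitals mark the GC-box letters GGGCGG, met in Sema3g on the other strand.
Sema3g: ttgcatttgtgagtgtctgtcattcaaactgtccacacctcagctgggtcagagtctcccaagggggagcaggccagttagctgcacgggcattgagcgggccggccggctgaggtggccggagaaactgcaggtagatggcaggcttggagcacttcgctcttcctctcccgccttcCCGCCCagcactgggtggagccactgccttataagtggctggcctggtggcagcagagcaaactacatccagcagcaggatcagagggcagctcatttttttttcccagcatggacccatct
Plxnb3: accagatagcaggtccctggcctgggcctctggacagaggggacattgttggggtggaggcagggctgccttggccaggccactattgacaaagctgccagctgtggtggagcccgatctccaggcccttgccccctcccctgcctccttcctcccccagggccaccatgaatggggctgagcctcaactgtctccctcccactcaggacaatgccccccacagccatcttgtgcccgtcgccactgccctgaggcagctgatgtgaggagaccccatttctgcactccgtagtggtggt
Both strands were searched for the AP-1 letters TGANTCA and the CRE letters TGACGTCA, which do not overlap here, and neither stretch holds a match. GGGCGG matched once in Sema3g and not in Plxnb3. Promoters of 55 of the 63 genes were in the table, 71 in all. TGANTCA was found in 3 of the 71, or 4.23%, and in 7.81% of all 32851 promoters of that length, while TGACGTCA was found in 1, or 1.41%, and in 1.79% of all. GGGCGG was in 71.8% of the 71 and 35.7% of all, at a median GC content of 64% and 52.7%. A match is a description of these letters and not of a bound site.

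Between SSC and CSP, 2 of the 55 genes passed, both higher in SSC, beside 0.432% of all genes tested in either direction and 0.384% higher in SSC. Without adjustment, 8 of 55 had p under 0.05, beside 6.51% of all genes. Overlap was absent for 3, all higher in SSC (Plxnb3, Sema3g and Sema3b), beside 2.20% of all genes in that direction, and 0 lay wholly below, beside 1.86%. In all, 25 were higher in SSC and 30 lower, while 42.3% of all genes were higher, with a median difference of -0.08 for the 55 and -0.05 for all genes. Among receptors, Nrp1, the binding subunit for Sema3a, was 12.32 ± 0.37 in SSC and 12.96 ± 0.26 in CSP (adjusted p = 0.467), and Epha4 was 10.36 ± 0.69 in SSC and 10.93 ± 0.17 in CSP (adjusted p = 0.878). The ligand Efna3 was 7.43 ± 0.18 in SSC and 7.91 ± 0.32 in CSP (adjusted p = 0.759), and it lay above the median on 6 arrays, none of them from SSC.

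These calls depended on the model and on single arrays. With each mouse as a block, the differences were 2.22 for Sema3g (adjusted p = 0.0655) and 2.45 for Plxnb3 (adjusted p = 0.0946), so neither passed. Set against CSP without the 3 dated SSC arrays, the 1 remaining SSC array gave 2.99 for Sema3g and 3.27 for Plxnb3, values of a single array. With the dated titles as a covariate, the SSC level likewise rested on SSC JUN 1 alone, so that fit cannot test these calls. With the mean of all probe sets of a gene, Plxnb3 no longer passed (2.00, adjusted p = 0.0659). Leaving out SSC no JUN 3 or CSP no JUN 2 moved both genes to adjusted p between 0.0504 and 0.0524, without SSC JUN 2 Plxnb3 stood at 0.0523, and without CSP no JUN 1 Sema3g stood at 0.0506.

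Between CSP and Thy, 3 of the 55 genes passed, all lower in CSP, beside 1.01% of all genes tested in either direction and 0.920% lower in CSP. Without adjustment 17 of 55 had p under 0.05 and were lower in CSP, beside 7.86% of all genes, and 6 were higher, beside 4.10%. The CSP arrays are those of the comparison with SSC, so these results are not independent of it. In 9 genes CSP lay wholly below Thy, beside 4.30% of all genes, and in 4 wholly above, beside 1.82%. Lower in CSP were 37 genes and higher 18, while 45.4% of all genes were higher, and the median was -0.22 for the 55 and -0.04 for all genes. By family, the median was -0.35 for semaphorins, with 15 of 20 lower in CSP, -0.21 for plexins and neuropilins, -0.28 for Eph receptors, -0.08 for ephrins, -0.37 for netrins and 0.13 for the 4 Slits and Robos.

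Sema3a, which limits bone resorption and favours bone formation in mice, ran the other way. It was 12.53, 11.94, 12.74 and 12.66 in CSP, against 10.57, 11.64, 11.53 and 11.59 in Thy. The 2 populations did not overlap, and CSP (12.47 ± 0.36) exceeded Thy (11.33 ± 0.51) by 1.14 ± 0.25 with an adjusted p of 0.0591. Its other 2 probe sets gave 0.94 and 2.12. In the test without SSC JUN 1 or without Thy JUN 2 it passed (adjusted p = 0.0446 and 0.0228).

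Sema3e, the ligand of Plxnd1, was 9.40 ± 0.78 in CSP and 7.79 ± 1.19 in Thy (adjusted p = 0.254), but its 4 probe sets ranged from -0.52 to 1.60. The receptor Epha3 was 11.72, 11.79, 11.97 and 11.91 in CSP, against 10.87, 11.16, 10.96 and 11.04 in Thy, without overlap and with little spread within either, a difference of 0.84 ± 0.36 (adjusted p = 0.394) whose SE is shared with the wider SSC arrays. Its other 3 probe sets gave 1.08, -0.07 and 0.18. The receptor Epha4 was 10.93 ± 0.17 in CSP and 10.14 ± 0.48 in Thy (adjusted p = 0.385), without overlap. The tested difference in Sema3b was held by 3 of the 12 fits that each left out 1 array, with adjusted p between 0.0207 and 0.158 over the 12, and it was not held with the mouse as a block (adjusted p = 0.0983). Plxnb3 and Sema3g passed in all 12. Without the 3 arrays of mouse 3, Plxnb3 passed (adjusted p = 0.0273), while Sema3g, at -2.06, and Sema3b, at -1.23, did not (adjusted p = 0.106 and 0.420).

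Between SSC and Thy, 0 of the 55 genes passed in limma, beside 0.392% of all genes tested. The mean signal of the poly-A controls, a technical measure, was 8.50 to 11.28 on SSC arrays and 11.37 to 12.32 on Thy arrays. SSC thus lay wholly below Thy in it, and differences between these populations cannot be told apart from it. Without adjustment, 13 had p under 0.05, beside 17.7% of all genes. Sema4a was 7.53, 6.83, 7.51 and 7.34 in SSC, against 8.54, 8.33, 8.49 and 8.07 in Thy. It lay above the median on 5 arrays, those of Thy and CSP no JUN 2, so it was tested only through the population where it was high. Ntn1, a secreted netrin, averaged 11.63 ± 0.36 in SSC and 12.49 ± 0.30 in Thy, where the lowest array was 12.06. These 2 genes were the only ones whose SSC arrays all lay on one side of Thy, below it, beside 5.18% of all genes below and 2.42% above, and their differences were -1.05 ± 0.28 (adjusted p = 0.116) and -0.86 ± 0.24 (adjusted p = 0.130). Sema4c, a ligand of Plxnb2, differed by -1.26 ± 0.31 (adjusted p = 0.0971). Higher in SSC but not passing were Sema3a (0.92 ± 0.25, adjusted p = 0.124), Sema3e (1.52 ± 0.54, adjusted p = 0.194) and Robo1 (0.63 ± 0.28, adjusted p = 0.269). The other probe sets of Sema3e gave 0.93, -0.20 and 0.73 for SSC minus Thy, so its sign depended on the probe set. The median difference was -0.20 for the 55 and -0.09 for all genes.

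The count differed without SSC JUN 1. Without that array 4 genes passed, Epha3, Ephb3, Sema4c and Sema4f, beside 311 of all 12496 genes, and without Thy JUN 2 1 did, Sema4c, beside 60 of all. SSC JUN 1 was the highest or lowest of the 4 SSC arrays for 46 of the 55 genes, or 83.6%, beside 72.7% of all genes tested.

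Over the 3 populations at once, the moderated F test called 3 genes, Sema3g (adjusted p = 0.00926), Plxnb3 (adjusted p = 0.0101) and Sema3b (adjusted p = 0.0443), beside 1.13% of all genes. Sema3a (adjusted p = 0.0859) and Sema4a (adjusted p = 0.140) came next. For Plxnb3 and Sema3g the order of levels had CSP lowest and SSC and Thy next to each other, within 1 SD.

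**Figure D3:**
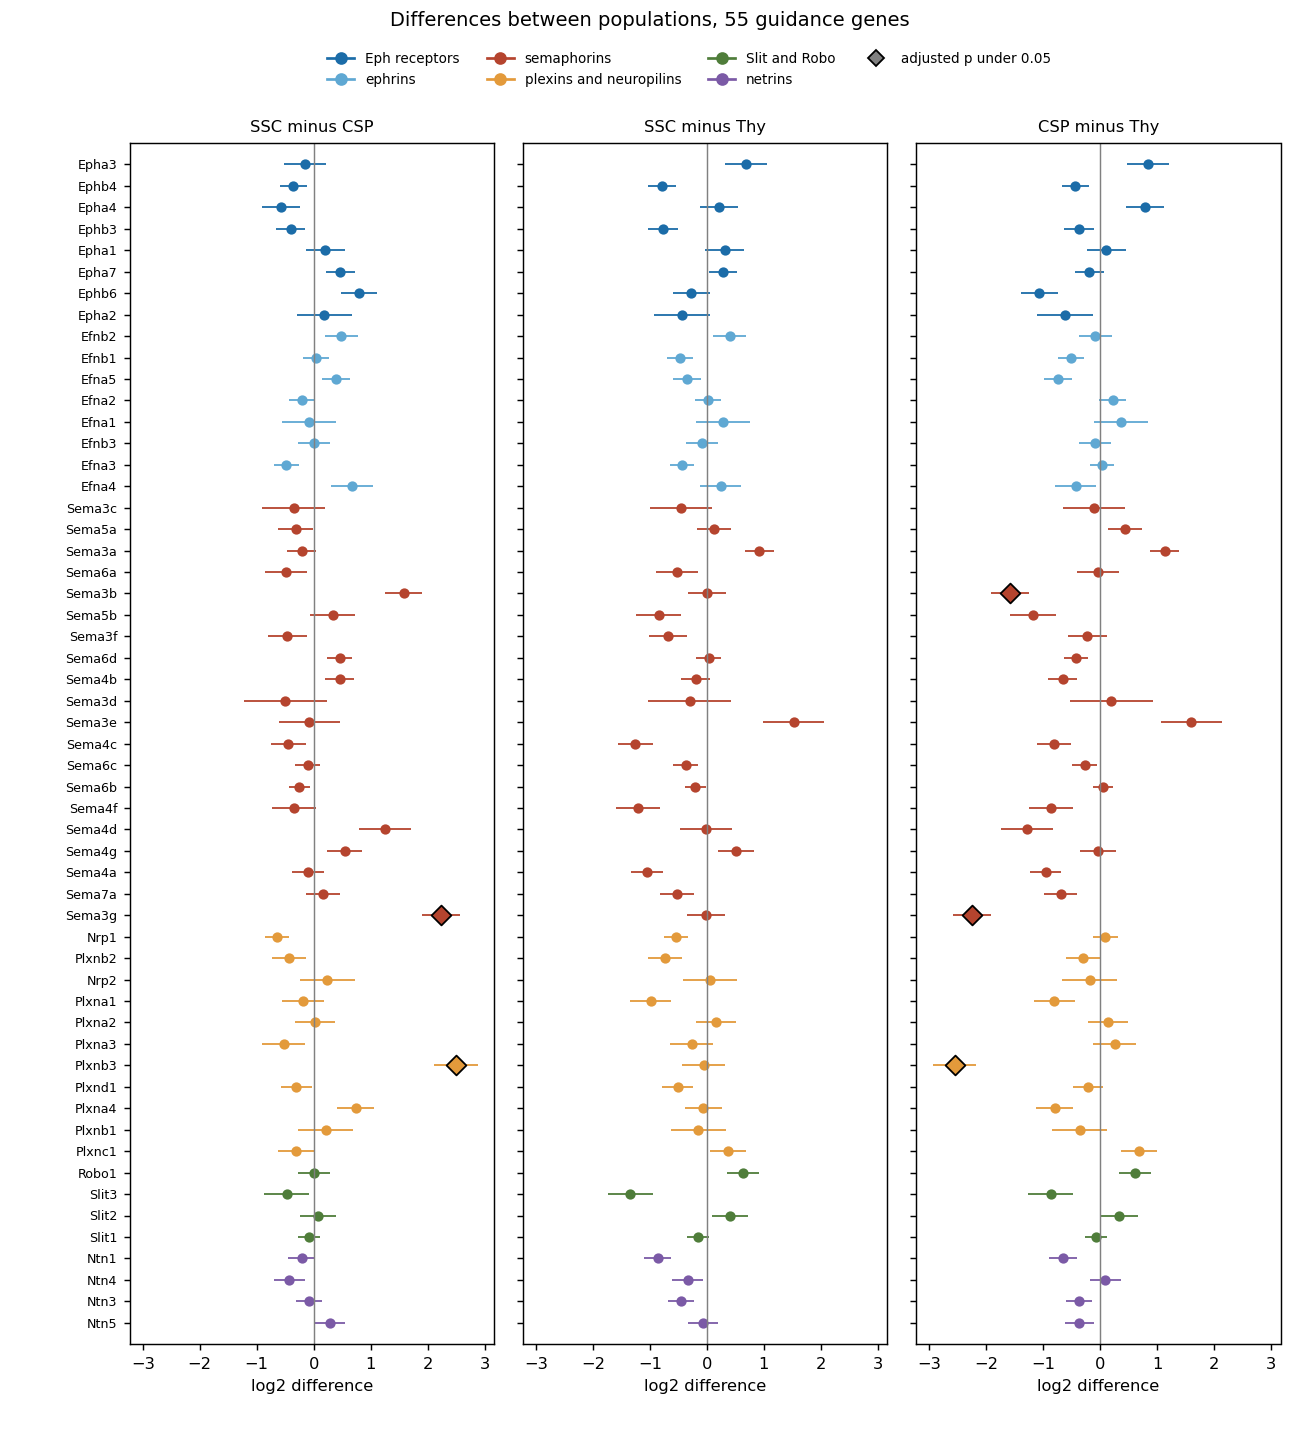
Log2 differences with SE for the 55 guidance genes tested, as SSC minus CSP, SSC minus Thy and CSP minus Thy, coloured by family. Diamonds mark adjusted p under 0.05: Plxnb3 and Sema3g (2.50 and 2.24) in the first panel, none in the second, and Plxnb3, Sema3g and Sema3b (-2.55, -2.25 and -1.58) in the third.

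Ligand and receptor pairs known from bone were set side by side after their values had been seen, and no member of them passed. Sema4d, which osteoclasts use to restrain osteoblasts in mice, was 8.05, 6.31, 6.59 and 7.97 in CSP, all below 8.26, 8.61, 8.72 and 8.47 in Thy (-1.28 ± 0.46, adjusted p = 0.287). For CSP minus Thy, the other probe sets of Sema4d gave -0.30 and -0.05. Its receptor Plxnb1 was 8.30 ± 1.22 in SSC, 8.09 ± 0.48 in CSP and 8.45 ± 0.32 in Thy. Efnb2, which signals with Ephb4 between osteoclasts and osteoblasts, was 10.53 ± 0.46 in SSC, 10.04 ± 0.47 in CSP and 10.13 ± 0.36 in Thy. Ephb4 averaged 10.88 ± 0.69, 11.24 ± 0.42 and 11.67 ± 0.33 in that order. The groups overlapped for each of these 3 genes. Slit3 was 10.13 ± 0.91 in SSC and 11.47 ± 0.81 in Thy (-1.34 ± 0.39, adjusted p = 0.141), while its receptor Robo1 lay the other way, at 11.91 ± 0.57 in SSC and 11.28 ± 0.63 in Thy. Both overlapped between the populations.

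Some markers of Schwann cells and glia followed the order of these genes. Sox10, the transcription factor that defines the lineage, was 11.49, 10.73, 9.70 and 10.23 in SSC, 8.30, 8.07, 7.90 and 6.66 in CSP and 10.58, 10.79, 11.10 and 10.71 in Thy, with CSP below both others (adjusted p = 0.00365 for SSC against CSP and 0.00269 for CSP against Thy). Mbp, a myelin protein, averaged 12.43 in SSC, 7.96 in CSP and 10.84 in Thy, with CSP lower than each (adjusted p = 0.00335 and 0.0215). Of the 6 markers of this kind used here, 2 passed in each of these comparisons, both lower in CSP, and the mean per array was 11.50 to 12.07 in SSC, 10.28 to 10.47 in CSP and 10.74 to 12.07 in Thy. Of the 6, 5 were higher in SSC than in CSP, and 4 were lower in CSP than in Thy while 2 were higher. S100b was one of these 2, at 9.72 ± 0.38 in SSC, 9.64 ± 1.20 in CSP and 8.77 ± 1.19 in Thy. The part of such cells in the differences of Plxnb3, Sema3g and Sema3b was not tested, and in sorted bulk RNA fewer cells of a type and less RNA per cell cannot be told apart.

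Pericyte and smooth muscle markers averaged 10.51 to 11.37 in SSC, 10.14 to 10.79 in CSP and 11.38 to 12.31 in Thy, and chondrocyte markers 9.60 to 13.29 in SSC, 10.15 to 13.15 in CSP and 8.93 to 10.47 in Thy. Of the 5 pericyte and smooth muscle markers, 3 passed between CSP and Thy, all lower in CSP. Between SSC and Thy 2 passed, both lower in SSC. Between SSC and CSP 0 passed, and SSC lay wholly above CSP for 2 of the 5. The part of pericytes, smooth muscle and chondrocytes in the semaphorin differences was not tested either. The mean over all 6 endothelial markers was 7.23 to 7.79 in SSC, 7.79 to 8.87 in CSP and 7.20 to 7.99 in Thy, and Pecam1 was 6.91 ± 0.67 in SSC and 8.43 ± 0.62 in CSP (adjusted p = 0.228). Of these 6, 4 were tested, with 3 lower in SSC than in CSP and 1, Tek, higher. Tek was 9.64 ± 0.72 in SSC, 8.86 ± 0.73 in CSP and 9.95 ± 0.98 in Thy. Robo4, the Robo of endothelium and one of these 6, was 5.12, 5.93, 6.03 and 4.99 in SSC, 6.57, 8.55, 7.65 and 6.83 in CSP and 5.94, 5.58, 5.24 and 5.81 in Thy. CSP lay above all other arrays, but only 1 array passed the median and the gene was not tested. Epha5, also not tested, was 6.83, 7.45, 7.31 and 8.92 in SSC, 6.81, 5.79, 5.79 and 6.19 in CSP and 6.02, 5.90, 6.74 and 6.53 in Thy, with 1 array over the median.

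JUN induction was compared next, with 2 arrays against 2 in each population. By limma, 0 guidance genes passed within any population or on average, as did 0% of all 12496 genes in each of these tests. Without adjustment, 9 of the 55 had p under 0.05 with SSC cells, beside 6.51% of all genes, 1 with CSP cells, beside 2.28%, 2 with Thy cells, beside 3.02%, and 10 on average, beside 12.6%.

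In SSC, Sema4f, a membrane-bound class 4 semaphorin, had the lowest p. It was 9.44 and 7.79 in SSC JUN, against 6.81 and 6.58 in SSC no JUN, without overlap, a difference of 1.92 ± 0.45 (limma, adjusted p = 0.689). Its probe set is of the kind whose probes can match other transcripts, and the second one gave 1.10. The ephrin receptor Ephb4 was 11.44 and 11.40 with JUN, against 10.70 and 9.98 without, a difference of 1.08 ± 0.35. Plxnd1, the receptor of Sema3e, differed by 0.97 ± 0.38 and was also without overlap. Lower with JUN were Epha7 (-0.79 ± 0.35), Epha3 (-1.01 ± 0.51) and Sema3c (-1.54 ± 0.79), all at an adjusted p of 0.689.

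SSC JUN 1 set several of these values. Sema3c was 10.42 and 13.38 in SSC JUN, against 13.26 and 13.62 in SSC no JUN, and Epha3 was 10.18 and 12.19 with JUN, against 12.11 and 12.28 without. In both genes 1 JUN array was low and the other was among the no JUN arrays. Within the 3 dated SSC arrays, 1 JUN against 2 no JUN, the differences were -0.06 for Sema3c, 0.00 for Epha3, 1.10 for Sema4f, 1.06 for Ephb4, 0.66 for Plxnd1 and -0.64 for Epha7. Over the 55 genes, 33 were higher and 22 lower with JUN, while 56.4% of all genes were higher, with a median of 0.29, beside 0.08 for all genes. In 15 genes the JUN arrays lay wholly above and in 5 wholly below, beside 22.7% and 15.7% of all genes.

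In CSP, Sema3b was 9.65 and 10.41 with JUN, against 9.00 and 9.22 without, a difference of 0.92 ± 0.42 (limma, adjusted p = 0.995). Other Sema3b probe sets gave 0.65 and -0.42. Ephb4 was 11.35 and 11.78 with JUN, against 10.83 and 10.99 without, a difference of 0.66 ± 0.35. On the probe sets used, the JUN arrays of both genes lay above. Efna4, an ephrin of the A class, differed by 0.90 ± 0.57, with 7.94 on JUN 2 and 6.21 to 6.28 on the other 3. It lay above the median on 2 of the 12 arrays, CSP JUN 2 and SSC JUN 2. Efna4 was thus tested only through JUN arrays on which it was high. Lower with JUN were Plxna4 (-0.74 ± 0.42), a semaphorin receptor of the A class, Plxna2 (-0.59 ± 0.45) and Sema3g (-0.55 ± 0.42), at the same adjusted p. The median over the 55 was 0.14, beside 0.07 for all genes, and 10 genes lay wholly above and 8 wholly below, beside 19.3% and 11.9%.

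In Thy, the 2 lowest p values were of opposite sign. Sema3g was 7.68 and 7.37 with JUN, against 9.15 and 8.85 without, a difference of -1.47 ± 0.42 (limma, adjusted p = 0.984). Ntn4, a netrin of basement membranes, was 10.50 and 11.07 with JUN, against 9.86 and 9.79 without, a difference of 0.96 ± 0.31. Neither overlapped. Ephb6, an Eph receptor without kinase activity, was 9.63 and 9.58 with JUN, against 8.74 and 8.71 without, a difference of 0.87 ± 0.46. Plxnd1 (0.73 ± 0.38), Plxnb3 (-0.75 ± 0.46) and Efna5 (-0.48 ± 0.32) completed the lowest p on each side, and without Thy no JUN 1 that of Plxnb3 was -0.03. The median over the 55 was 0.06, beside 0.04 for all genes, and 8 genes lay wholly above and 4 wholly below, beside 17.9% and 10.8%. Mbp was 9.05 and 10.81 in Thy JUN, against 12.76 and 10.75 in Thy no JUN, and its part in the Sema3g and Plxnb3 values was not tested.

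**Figure D4:**
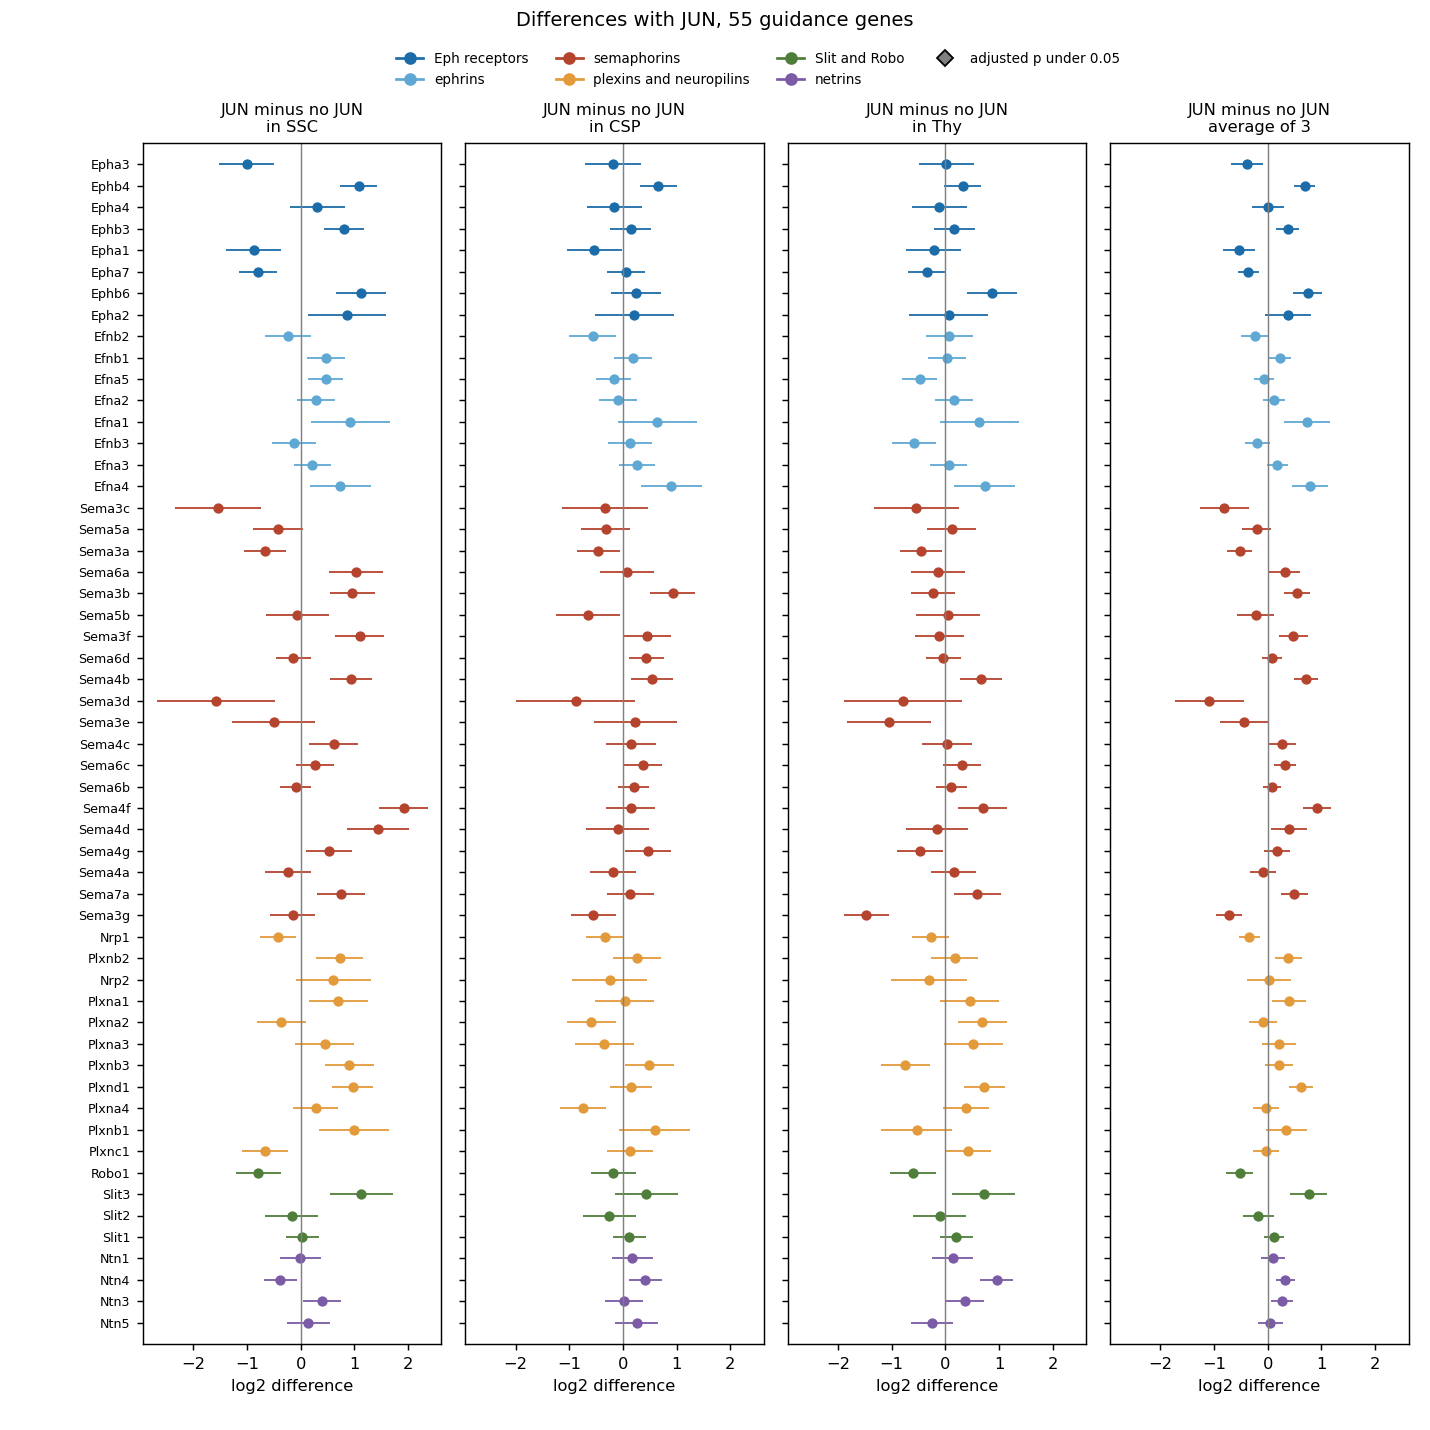
Log2 differences, JUN minus no JUN, with SE for the 55 guidance genes in SSC, CSP and Thy (2 arrays against 2) and averaged over the populations. No gene reached an adjusted p under 0.05, and the points furthest from 0 include Sema4f in SSC (1.92) and Sema3g in Thy (-1.47).

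Averaged over populations, 35 of the 55 genes were higher and 20 lower with JUN, while 57.1% of all genes were higher, with a median of 0.12, beside 0.07 for all genes. Sema4f (0.92 ± 0.26), Ephb4 (0.69 ± 0.20), Sema4b (0.72 ± 0.22), Ephb6 (0.75 ± 0.27) and Plxnd1 (0.61 ± 0.22) had the lowest p upward, and Sema3g (-0.72 ± 0.24) and Sema3a (-0.53 ± 0.23) downward, each with an adjusted p of 0.395. Robo1 (-0.53 ± 0.24, adjusted p = 0.397), Epha1 (-0.54 ± 0.30, adjusted p = 0.417) and Nrp1 (-0.35 ± 0.20, adjusted p = 0.423) followed. The sign for Epha1 differed between probe sets, as its others gave 0.60 and -0.58. Ephb4 differed by 1.08 in SSC, 0.66 in CSP and 0.32 in Thy. Without mouse 7, 1 of the 2 JUN mice, Sema4f differed by 1.26, and without mouse 4, the other, by 0.58. Each of these fits left 1 JUN mouse with 1 array per population. Their spread thus came from the no JUN arrays only, and no calls are given for them. In limma's F test of whether the effect of JUN differed between populations, 0 of the 55 passed, as did 0% of all genes, and 1 had an unadjusted p under 0.05, beside 1.14%. That gene was Ntn4, followed by Sema4f, Plxnb3, Sema3g and Sema3b, all at an adjusted p of 0.9997. For JUN minus no JUN, the Ntn4 probe set used gave -0.38 in SSC, 0.41 in CSP and 0.96 in Thy. Its other probe set gave 1.02, 0.67 and 0.79.

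The other genes of these pathways, 49 tested of 54 measured on a list of further receptors and intracellular partners, held 0 calls in every comparison. Unadjusted p was under 0.05 for 7 of the 49 (14.3%) when SSC was set against CSP, beside 6.51% of all genes. It was so for 15 (30.6%) when SSC was set against Thy, beside 17.7%, and for 12 (24.5%) when CSP was set against Thy, beside 11.96%. Between SSC and CSP the lowest were the Rac activator Dock1 (0.71 ± 0.21, adjusted p = 0.346), the adhesion molecule Chl1 (1.53 ± 0.49, adjusted p = 0.429), the UNC5 ligand Flrt3 (0.79 ± 0.25, adjusted p = 0.436) and the membrane-anchored netrin Ntng1 (0.97 ± 0.32, adjusted p = 0.478). In CSP against Thy they were the cofilin kinase Limk1 (-1.17 ± 0.32, adjusted p = 0.138), the plexin effector Mical1 (-0.92 ± 0.25, adjusted p = 0.139), the adhesion molecule L1cam (-1.44 ± 0.40, adjusted p = 0.149) and Crmp1 (-0.88 ± 0.27, adjusted p = 0.203). In SSC against Thy, Limk1 differed by -1.24 ± 0.32 (adjusted p = 0.110).

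With JUN, the lowest p on that list in the average belonged to Dpysl4, which encodes a member of the collapsin response mediator family, known for relaying semaphorin signals. It was 9.71 and 8.96 in SSC JUN, against 8.07 and 8.15 in SSC no JUN. In CSP it was 8.34 and 8.99 with JUN, against 7.44 and 8.33 without, and in Thy 9.43 and 9.37 with JUN, against 8.60 and 8.83 without. The JUN arrays lay above within each population, though in CSP the closest were 8.34 and 8.33. How many of all genes did so in each population was not counted. The averaged difference was 0.90 ± 0.22 (limma, adjusted p = 0.395). The SH2 adaptor Nck2 (0.68 ± 0.23), Limk1 (0.68 ± 0.27) and Flrt3 (-0.67 ± 0.22) followed at the same adjusted p.

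Spread between arrays was wider for guidance genes than for most genes. The median residual SD in the model of populations was 0.48 for the 55 and 0.38 for all 12496 genes.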

How the data were processed

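Gene expression was measured on 12 arrays, 1 per sample, and samples were grouped by the labels. The authors deposited 1 log2 value per probe set and array, made with RMA per the submitters' processing notes. The sources used here do not name its software or settings. RMA gives the arrays a common distribution, so a change in total RNA is not visible, and it compresses differences of dim probe sets. Values between 3.20 and 15.99 show the log2 scale.

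Of 45101 probe sets, 64 controls were left out. GEO's platform annotation gave 34945 probe sets 1 symbol, 932 several and 9160 none, and only single-symbol probe sets were used. Entrez identifiers of 34741 were found in a RefSeq gene table, which changed 0 symbols. Each gene was read from its probe set of highest mean, and genes above the array's median in at least 2 arrays were tested.

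Linear models were fitted in limma 3.58.1 (R 4.3.3), with moderated two-sided tests, p-values adjusted over 12496 genes by Benjamini-Hochberg, and a threshold of 0.05. The comparison of populations kept the arm as a term (8 residual degrees of freedom), and that of JUN used 6 group means (6 degrees of freedom), so groups of 2 share 1 estimate of spread. P-values measure only the spread between these samples. The scripts were tested on simulated data. Genes named are those that passed, filled up with those of lowest p in each direction to 3 (5 for the average effect of JUN and for F tests), and the 3 of highest mean in each family; from the further pathway genes, up to 4 of lowest p per comparison. Robo4, Epha5, Epha3 in CSP against Thy and the pairs known from bone were chosen after their values were seen. The genes, lists and tests were chosen with earlier results of these data known.

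Titles give 5 mice, and arrays with the same mouse number were taken as 1 animal, although for mice 3 and 7 a dated title is joined to undated ones. Residuals of 10 pairs of arrays from the same mouse correlated at -0.33 to 0.41 (median -0.06), against -0.50 to 0.48 (median -0.02) for 38 pairs from different mice. The alternatives changed the filter, the probe set rule, the scaling, the variance trend, covariates, blocks, and the arrays or mice included.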

Additional observations from a re-analysis of the deposited data

Results flagged for a closer look

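In 16 of 165 sets of 4 arrays (the 55 genes in 3 populations), or 9.70%, the highest or lowest array stood apart from the other 3 by Dixon's test. Its nominal rate of about 1 in 20 is for arrays of 1 group, while each set held 2 JUN and 2 no JUN arrays. The share over all genes was not computed, so 9.70% cannot be read as particular to guidance genes. CSP JUN 2 held 5 of the 16. It was the highest or lowest CSP array for 56.4% of the 55 and 67.6% of all genes tested. Efna4 was 7.94 there, against 6.21 to 6.28 on the other CSP arrays, and Plxnd1 was 8.73, against 8.43 to 8.47. On the low side Epha1 was 8.54, against 9.63 to 9.73, Robo1 was 11.65, against 11.96 to 11.99, and Sema3g was 5.23, against 6.25 to 6.31.

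CSP no JUN 1 held 3, with Ntn5 at 7.27 (others 7.77 to 7.82), Sema4f at 7.82 (others 8.04 to 8.07) and Sema5a at 12.87 (others 12.02 to 12.15). Plxnb3 was 6.34 on CSP no JUN 2, below 7.13 to 7.27 on the other CSP arrays.

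SSC JUN 1 held 3, all low. Sema3c was 10.42, against 13.26 to 13.62 on the other SSC arrays, Epha3 was 10.18, against 12.11 to 12.28, and Sema5a was 11.24, against 12.17 to 12.27. Sema6b was 8.12 on SSC JUN 2, where the others were 8.30 to 8.33.

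In Thy, Plxnb3 was 10.63 on no JUN 1, against 9.15 to 9.19 on the others. Nrp1 was 13.33 on no JUN 2, against 12.67 to 12.77, and Sema3a was 10.57 on JUN 1, against 11.53 to 11.64.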

How the results depend on the processing

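Counts of guidance genes moved as follows. SSC against CSP (2 genes) gave 1, Sema3g, with the mean of all probe sets. It gave 0 with the mouse as a fixed replicate block and 0 to 3 with 1 array left out. Without the 3 dated SSC arrays, or with the dated titles as a covariate, the SSC level rested on SSC JUN 1 alone. Both settings were chosen after seeing the data, and no count is given for them in this comparison. SSC against Thy (0) gave 0 to 4 with 1 array left out. CSP against Thy (3) gave 2 to 5 with 1 array left out, 5 with the dated titles as a covariate and 1 without mouse 3, both chosen after seeing the data. The test over 3 populations (3) gave 2 to 7 with 1 array left out and 1 without mouse 3. The average effect of JUN (0) rested on 1 JUN mouse without mouse 7, so no count is given for that fit. The mouse as a random replicate block changed no call, at a consensus correlation of 0.0047 for populations and -0.060 for JUN. Arrays of the same label number correlated at -0.10 in CSP and -0.18 in Thy, and that number as a block gave 0 calls for JUN. Causes were not tested.

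Signs turned in 7 cases, none of a gene that passed. With the poly-A controls as a covariate, Robo1 was -0.025 for SSC minus Thy, Epha3 0.19 and Sema3c 0.72 for JUN in SSC and Nrp1 0.027 for JUN on average. Epha1 was 0.013 for JUN on average without mouse 7. Epha4 was 0.15 for SSC minus CSP with the dated titles as a covariate and 0.15 without those arrays. Sema3b passed for SSC against CSP with centred arrays (adjusted p = 0.0498 by limma) or poly-A controls (0.0140), while with poly-A controls it did not pass for CSP against Thy (0.188).

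Over all genes, calls of SSC against CSP (54) ranged from 8 with the fixed mouse block to 65 with poly-A controls, those of SSC against Thy (49) from 0 with poly-A controls to 311 without SSC JUN 1, those of CSP against Thy (126) from 17 without mouse 3 to 155 without SSC JUN 1, and those of the test over 3 populations (141) from 28 without mouse 3 to 267 without SSC JUN 1. For JUN on average, 0 genes passed with all mice. Groups of 2 arrays, and Plxnb3, Sema3g and Robo4 signals below the arrays' median in some populations, limit the size of difference that can be read.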
